A study of Mus musculus with 36 samples.

Results

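Respiratory complex I was described here through 35 genes that encode subunits outside the NADH-oxidising N-module: those of the ubiquinone-binding Q-module and of the membrane arm. The members were chosen by name. They were 28 nuclear genes and the 7 mitochondrially encoded genes mt-Nd1, mt-Nd2, mt-Nd3, mt-Nd4, mt-Nd4l, mt-Nd5 and mt-Nd6. All 35 were present among the 56980 gene rows of the count table, and all 35 were among the 25601 genes that passed the filter on low counts. The list does not hold every known subunit of either part.

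The series measured polyA-enriched RNA in brain tissue of 36 mice aged 37 to 45 days, all given CP2 or vehicle by gavage for 3 days. CP2 is a small molecule that the series' title calls a complex I inhibitor. Each sample was labelled Ndufs4 knockout (KO) or wild type (WT), its title carried the letter F or M, and the design text named hippocampus and cortex while each sample carried the tissue label brain. The groups were WT vehicle F, KO vehicle F, WT CP2 F, KO CP2 F, WT CP2 M and KO CP2 M with 5 samples each, and WT vehicle M and KO vehicle M with 3 samples each. The labels give neither the strain nor the design of the knockout allele, and no label says which samples shared a litter or a day. P-values therefore measure the spread between these samples.

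Complex I takes electrons from NADH in its N-module, passes them through iron-sulfur clusters to ubiquinone in the Q-module, and pumps protons across the inner mitochondrial membrane in its membrane arm. The mt-Nd proteins form the core of the membrane arm, and the nuclear supernumerary subunits pack around them. The arm is assembled from intermediates that are named after their core proteins (ND1, ND2, ND4 and ND5), and these names are used below to order the members. Neurons rely heavily on oxidative phosphorylation for their ATP. Ndufs4, a subunit that joins the N-module to the Q-module and is not a member here, is mutated in Leigh syndrome, and mice without it are a model of that disease.

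Gene counts per sample ran from 4.61e+07 to 8.86e+07 (median 5.47e+07), and levels are in CPM, counts scaled to a common library total. Single samples are named by the L-number in their title. Ndufs4 was lower in KO in each of the 4 matched comparisons, by -0.63 (F, vehicle), -0.55 (F, CP2) and -0.35 (M, CP2) in mean log2 CPM (exact two-sided permutation test, p = 0.00794 each, the smallest possible with 5 against 5) and by -0.66 in M with vehicle (exact permutation p = 0.1, the smallest possible with 3 against 3). KO samples kept 27.4 to 39.1 CPM of Ndufs4, and the part of the gene that was deleted is not given. Where in the gene these reads lie was not analysed here. Xist and Ddx3y matched the title letter in 35 samples. The library labelled KO CP2 M, L291, had the M pattern of Ddx3y and 47.3 CPM of Xist, against at most 0.833 CPM in the other M samples. In KO CP2 M, every pair with L266 had a mean chi-square per gene of at least 83.2, where the highest pair without it among those with L291 had 40.7. Calls in KO against WT with CP2 in M and in CP2 against vehicle in KO are therefore also counted without L266 and L291. All markers fixed for neurons (6), astrocytes (5), oligodendrocytes (5), microglia (5), endothelium (4) and hippocampus (6) passed the filter on low counts, as did those for striatum (5), thalamus (4), cerebellum (4), choroid plexus (5), blood (4) and nuclear RNA (4).

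Promoter windows in RefSeq (GRCm38.p6, 250 bases before to 50 bases after the start) were matched by symbol for 26 of the 28 nuclear members. Ndufb1-ps, Ndufb9 and the mt-Nd genes had no window. Shown are the windows from 200 bases before to 30 bases after the start of the 4 members that were lower in KO with vehicle (Ndufc1, Ndufb2, Ndufs5 and Ndufb10) and of Ndufb4, which was higher in KO with CP2. Capitals mark matches, on either strand, to the motifs of NRF1 (GCGCANGCG) and YY1 (AAGATGGC). These are factors with known binding sites in nuclear genes for respiratory chain subunits, and the motif of ETS factors such as GABPA (CCGGAAG) was searched as well. Each sequence runs 5′ to 3′ on the strand of the gene.

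Ndufc1: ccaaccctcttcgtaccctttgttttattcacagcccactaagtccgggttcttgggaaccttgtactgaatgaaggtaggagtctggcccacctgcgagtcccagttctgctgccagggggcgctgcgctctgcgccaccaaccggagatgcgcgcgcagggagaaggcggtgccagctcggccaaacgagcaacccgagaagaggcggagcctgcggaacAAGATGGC

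Ndufs5: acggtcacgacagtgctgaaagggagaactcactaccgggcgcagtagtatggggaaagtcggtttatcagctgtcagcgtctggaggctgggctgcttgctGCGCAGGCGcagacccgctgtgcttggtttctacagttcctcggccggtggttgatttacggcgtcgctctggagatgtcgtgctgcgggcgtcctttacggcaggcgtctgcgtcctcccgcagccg

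Ndufb10: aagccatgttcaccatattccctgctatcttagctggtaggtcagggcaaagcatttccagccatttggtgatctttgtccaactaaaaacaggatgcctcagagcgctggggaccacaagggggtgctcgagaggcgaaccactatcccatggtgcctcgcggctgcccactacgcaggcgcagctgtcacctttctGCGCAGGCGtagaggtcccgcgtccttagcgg

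Ndufb2: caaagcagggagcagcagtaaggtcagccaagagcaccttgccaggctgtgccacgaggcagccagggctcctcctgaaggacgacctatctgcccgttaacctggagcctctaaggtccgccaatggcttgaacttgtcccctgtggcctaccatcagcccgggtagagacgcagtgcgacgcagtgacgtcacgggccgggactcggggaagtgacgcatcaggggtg

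Ndufb4: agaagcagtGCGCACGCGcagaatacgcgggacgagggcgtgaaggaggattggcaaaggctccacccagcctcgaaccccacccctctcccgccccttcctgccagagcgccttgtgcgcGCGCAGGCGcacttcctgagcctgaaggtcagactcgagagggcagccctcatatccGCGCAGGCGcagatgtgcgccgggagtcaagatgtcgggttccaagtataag

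The windows shown lie at chr3:51408926-51409155 (Ndufc1, minus strand), chr4:123718157-123718386 (Ndufs5, minus), chr17:24724394-24724623 (Ndufb10, minus), chr6:39592365-39592594 (Ndufb2, plus) and chr16:37654339-37654568 (Ndufb4, minus). The NRF1 letters were found in 7 of the 26 members (26.9%), namely Ndufs5, Ndufa5, Ndufa6, Ndufa8, Ndufa11, Ndufb4 and Ndufb10, and in 7.03% of the 27025 genes with a window. The YY1 letters were found in 5 members (19.2%, against 3.19% of all genes), Ndufs7, Ndufa3, Ndufa9, Ndufb8 and Ndufc1, in each of them between 23 and 39 bases after the start. ETS letters were present in 4 members (15.4%, against 9.93%), Ndufs3, Ndufs8, Ndufb6 and Ndufb7. At least 1 of the 3 motifs was present in 16 of 26 members (61.5%) and in 17.8% of all genes. Ndufb2 had none of the 3 in its window. The 4 genes lower in KO with vehicle thus did not share a motif: 2 held NRF1 letters, 1 held YY1 letters and 1 held neither. A match is a description of the letters and not a binding site.

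The ends of mt-Nd5 and mt-Nd6 are shown because their counts are compared below and the genes face each other on opposite strands of mitochondrial DNA. In GENCODE M21 (GRCm38) mt-Nd5 spans bases 11742 to 13565 of the plus strand and mt-Nd6 bases 13552 to 14070 of the minus strand, all coding sequence. The last 40 bases of each are given 5′ to 3′ on its own strand, with the 14 shared bases in capitals.

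mt-Nd5: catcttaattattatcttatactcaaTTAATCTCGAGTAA

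mt-Nd6: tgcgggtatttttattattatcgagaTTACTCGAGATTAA

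In the mouse the mt-Nd5 mRNA runs on past its stop codon along the strand opposite mt-Nd6. Whether the authors counted by strand is not given in the sources used here, so reads of mt-Nd6 and reads antisense to it cannot be told apart.

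Several other members share sequence with copies elsewhere, judged from GENCODE M21 transcripts with at least 95% identity over at least 75 bases. Of mt-Nd3, 99.1% is repeated in Gm28438 at 99.7% identity, of mt-Nd4l 99.0% in Gm10222 at 100% and of mt-Nd4 63.6% in Gm28439 at 100%. These are nuclear gene models that resemble mitochondrial DNA. The counts of mt-Nd3 (10.7 to 21.3 CPM) and mt-Nd4l (2.10 to 6.31 CPM) are therefore uncertain, since reads with several matches (4.05% to 5.91% of reads in a sample) are set apart in the table. The same limit applies to the repeated part of mt-Nd4, so the levels, ratios and calls of mt-Nd4 below are less certain too. Part of mt-Nd2 (49.1%) resembles Gm13339 at 96.7% identity and part of mt-Nd5 (52.3%) resembles Gm4076 at 95.2%, but these models had group means of at most 1.24 and 0.624 CPM. No such copy was found for mt-Nd1 or mt-Nd6. Among nuclear members, Ndufs3 (75.7%, Gm12251), Ndufb11 (50%, Gm6444), Ndufs5 (46.9%, BC002163), Ndufb4 (40.2%, Ndufb4c) and Ndufb3 (37.0%, Gm45930) had the largest shares covered, and each of these copies had group means of at most 0.560 CPM. Exons of Ndufb6 (39.0%, Smim27), Ndufa13 (30%, Tssk6), Ndufb11 (12.9%, Rbm10), Ndufb1-ps (12.7%, Cpsf2) and Ndufb5 (12.3%, Mrpl47) overlap a gene on the opposite strand, and 19.5% of Ndufb9 overlaps Gm49356 on the same strand.

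The table is not scaled by transcript length, so no order of the members by abundance is given. Summed over the 28 nuclear members, F samples held 1711 to 2284 CPM and M samples 1414 to 2114 CPM. Summed over the 7 mt-Nd members, samples held 14498 to 24265 CPM, which was 1.46% to 2.41% of the gene counts. The ratio of mt-Nd to nuclear counts was between 7.38 and 12.3 in single samples. Its group means ran from 8.98 ± 1.65 (SD, n = 3) in WT vehicle M to 10.4 ± 1.48 (SD, n = 3) in KO vehicle M, and the ranges of all 8 groups overlapped.

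**Figure D1:**
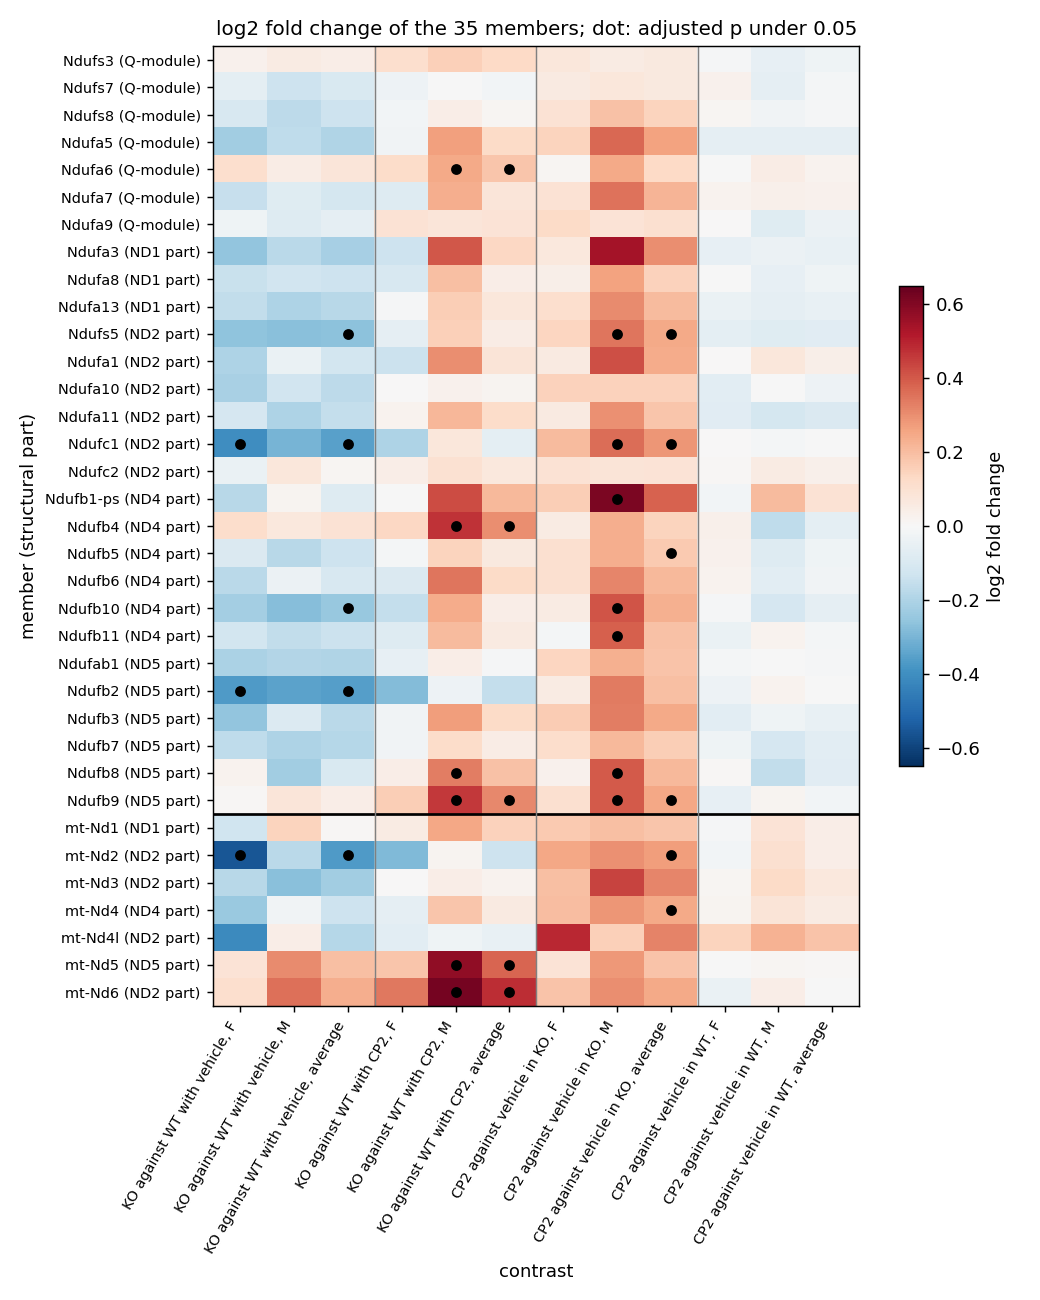
Colour shows the log2 fold change of each of the 35 members (rows, nuclear above the black line and mt-Nd below it) in 12 contrasts (columns), and a black dot marks an adjusted p under 0.05 over 25601 genes. Calls with vehicle lie on the lower side, those with CP2 or for CP2 in KO lie on the higher side, and the 3 contrasts of CP2 in WT hold none.

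Knockout against wild type with vehicle asks how the loss of Ndufs4 changes the transcripts of the rest of the complex. Averaged over F and M, 4 of 28 nuclear members (14.3%) and 1 of 7 mt-Nd members (14.3%) were lower in KO and none was higher, where 3.8% of the 25601 genes tested were called lower and 2.87% higher (edgeR quasi-likelihood test, Benjamini-Hochberg adjusted p under 0.05). The members that fell were Ndufc1 and Ndufs5, small accessory subunits of the ND2 part, Ndufb2 of the ND5 part, Ndufb10 of the ND4 part, and mt-Nd2, a proton-pumping core subunit. In bulk tissue, fewer cells of a type and less RNA per cell cannot be told apart. The median log2 fold change was -0.14 over the nuclear members and -0.13 over the mt-Nd members, against 0.022 over all genes tested. Within F, Ndufc1, Ndufb2 and mt-Nd2 were called (lower, 2.94% of all genes). Within M no member was called (0.516% of all genes in either direction), with 5 nuclear and 2 mt-Nd members at an unadjusted p under 0.05 and 0 called by DESeq2. Counts at an unadjusted p, here and below, stand without the count over all genes, except for CP2 against vehicle in WT.

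Ndufc1 had 39.1, 40.1, 41.4, 42.01 and 43.6 CPM in WT vehicle F and 34.6, 32.4, 28.9, 31.5 and 28.5 CPM in KO vehicle F. In M it had 39.4, 35.9 and 28.6 CPM in WT and 31.99, 25.7 and 26.7 CPM in KO. The F groups did not overlap, every KO sample being lower than every WT sample, while the M groups overlapped. The change was -0.40 (SE 0.084, adjusted p = 0.00364) in F and -0.35 (SE 0.069, adjusted p = 0.00137) averaged over the letters.

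Ndufb2 had 61.1, 65.97, 64.1, 68.3 and 69.5 CPM in WT vehicle F and 57.7, 54.5, 48.3, 49.9 and 44.7 CPM in KO vehicle F, again without overlap. In M the values were 62.2, 57.4 and 45.3 CPM in WT and 47.5, 39.7 and 42.5 CPM in KO, and the lowest WT sample lay inside the KO range. Its log2 fold change was -0.37 (SE 0.10, adjusted p = 0.0206) in F and -0.36 (SE 0.079, adjusted p = 0.00425) averaged.

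Ndufs5 had 63.3, 73.1, 63.01, 72.2 and 73.9 CPM in WT vehicle F and 60.6, 59.3, 55.7, 61.7 and 50.6 CPM in KO vehicle F, and 62.8, 59.2 and 43.1 CPM in WT and 46.9, 49.02 and 40.8 CPM in KO in M. All KO samples were below all WT samples in F, and the M groups overlapped. It was called only as the average of the letters (log2 fold change of -0.27 with SE 0.074 and adjusted p = 0.0222). Ndufb10 had 84.04, 97.2, 98.3, 114 and 111 CPM in WT vehicle F and 98.2, 90.4, 80.4, 85.4 and 78.4 CPM in KO vehicle F, and 91.4, 91.97 and 71.2 against 72.4, 68.9 and 69.2 CPM in M. Its groups overlapped in both letters, and its average change was called (log2 fold change of -0.25 with SE 0.074 and adjusted p = 0.036). In all, 4 nuclear members and 1 mt-Nd member were lower without overlap in F, where 2.87% of all genes were.

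The mt-Nd members did not move as a block. mt-Nd2 had 4212, 3607, 3857, 3788 and 3554 CPM in WT vehicle F and 2616, 2484, 2443, 2219 and 3162 CPM in KO vehicle F. In M it had 3038, 2877 and 2816 CPM in WT and 2288, 2696 and 2746 CPM in KO. Every KO sample was below every WT sample of the same letter. The change was -0.56 (SE 0.10, adjusted p = 0.000769) in F and -0.37 (SE 0.08, adjusted p = 0.0039) averaged, and in M it was -0.18 (SE 0.13, adjusted p = 0.636). mt-Nd1, a core subunit next to the ubiquinone site, had 6115, 6081, 5909, 5854 and 5514 CPM in WT and 5478, 5199, 5966, 4755 and 5590.0 CPM in KO in F, ranges that overlapped, and its average log2 fold change was 0.0098 (SE 0.069, adjusted p = 0.957). mt-Nd5, the core subunit at the far end of the arm, had 4676, 4310.5, 4585, 4442 and 4029.8 CPM in WT and 4469, 4603, 4732, 4008 and 5617 CPM in KO in F. In M it had 3548, 3196 and 3680.3 CPM in WT and 3836, 4356 and 4686 CPM in KO. The F groups overlapped and the M groups did not, with KO higher, and the average change of 0.20 (SE 0.078, adjusted p = 0.12) was not called. For mt-Nd6 it was 0.24 (SE 0.085, adjusted p = 0.0865), for mt-Nd4 -0.13 (SE 0.072, adjusted p = 0.279), for mt-Nd3 -0.23 (SE 0.11, adjusted p = 0.228) and for mt-Nd4l -0.19 (SE 0.15, adjusted p = 0.51).

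**Figure D2:**
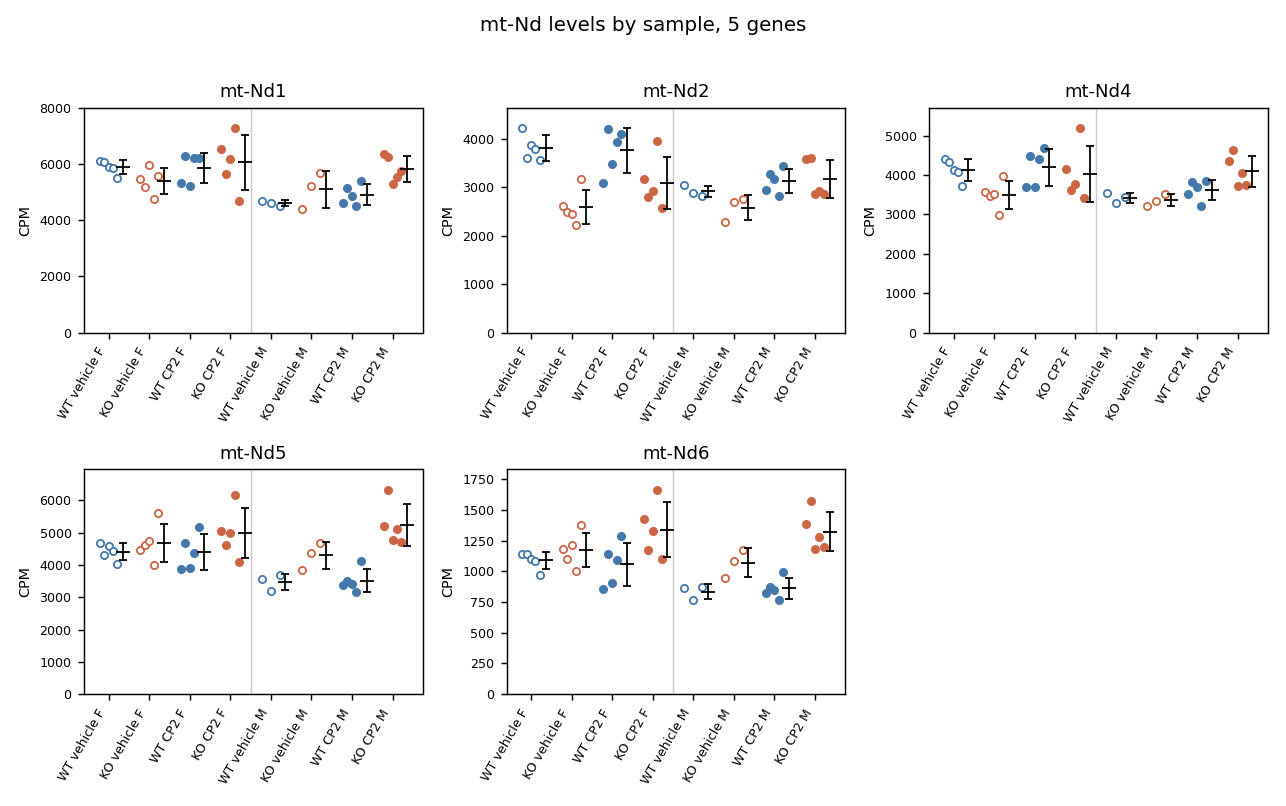
Points are single samples in CPM for 5 mt-Nd genes in the 8 groups (blue WT, orange KO, open vehicle, filled CP2), and the black mark beside them is the mean ± SD. mt-Nd2 lies lower in KO than in WT with vehicle, mt-Nd5 and mt-Nd6 lie higher in KO with CP2 in M, and mt-Nd3 and mt-Nd4l are not drawn because nearly their whole length has a near-identical copy.

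Markers of other cells moved with this contrast too. All 4 blood markers were lower in KO in the averaged contrast (median log2 fold change -2.00). Their summed level was 83.3 to 377 CPM in WT vehicle F, 71.7 to 124 CPM in KO vehicle F, 111 to 634 CPM in WT vehicle M and 36.7 to 82.8 CPM in KO vehicle M, and none was called within F or M alone. Of the other lists, 1 of 5 microglia markers was lower and 1 of 6 hippocampus markers higher in the average, while in F 2 of 6 hippocampus markers were lower. No marker of neurons, astrocytes, oligodendrocytes, endothelium, choroid plexus, striatum, cerebellum, thalamus or nuclear RNA was called in the average. The part of these markers in the members' results was not tested.

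The share of reads that the table sets apart as falling in no annotated gene (the off-gene share) also had a higher mean in KO in both letters. It was 5.09% to 7.04% in WT vehicle F and 6.19% to 11.7% in KO vehicle F. In M it was 9.48% to 11.6% in WT vehicle and 11.3% to 13.0% in KO vehicle. Summed nuclear RNA markers (Malat1, Meg3, Neat1 and Snhg11) were 1792 to 3226 CPM in WT vehicle F and 2015 to 4946 CPM in KO vehicle F. In M they were 4440 to 5538 CPM in WT vehicle and 5962 to 6551 CPM in KO vehicle, without overlap. With the off-gene share as a covariate, mt-Nd2 was the 1 member still called, both as the average and in F. The count of 5 became 11 without L303 and 3 without L285, L300 or L322, and mt-Nd2, Ndufc1 and Ndufb2 were called as the average without any single library. Ndufs5 was called in 13 of 16 such fits (not without L285, L300 or L322) and Ndufb10 in 6 of 16 (not without L295, L296, L281, L282, L283, L285, L300, L310, L319 or L322). In F the call of Ndufb2 was lost without L295, L296 or L281.

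Knockout against wild type under CP2 asks the same question with the inhibitor present in both genotypes. Averaged over the letters, 3 of 28 nuclear members (10.7%) and 2 of 7 mt-Nd members (28.6%) were higher in KO and none was lower, where 5.54% of all genes were called higher and 6.07% lower. They were Ndufb9 of the ND5 part, Ndufb4 of the ND4 part, Ndufa6, an accessory subunit of the Q-module, mt-Nd5 and mt-Nd6. Since reads of mt-Nd6 and reads antisense to it cannot be told apart, the 2 mt-Nd calls need not be separate changes. The count ratio of mt-Nd6 to mt-Nd5 was between 0.220 and 0.283 in all 36 samples. Whether mt-Nd6 counts include mt-Nd5 RNA was not tested. The median log2 fold change was 0.076 over nuclear and 0.061 over mt-Nd members, against 0.012 over all genes. Within M these 5 and Ndufb8 were called (4.75% of all genes higher). Within F no member was called (2% of all genes in either direction), with 2 nuclear and 2 mt-Nd members at an unadjusted p under 0.05 and 1 mt-Nd member called by DESeq2.

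mt-Nd5 had 3873, 4689, 3894, 4379 and 5159 CPM in WT CP2 F and 5061, 4616, 4996, 6152 and 4075 CPM in KO CP2 F. In M it had 3380.1, 3489, 3398, 3166 and 4105 CPM in WT and 5213, 6319, 4772, 5098 and 4719.8 CPM in KO. The F groups overlapped, and in M every KO sample was above every WT sample. The log2 fold change was 0.57 (SE 0.10, adjusted p = 9.11e-05) in M and 0.38 (SE 0.068, adjusted p = 0.000184) averaged. mt-Nd6, a small core subunit of the ND2 part, had 853, 1142, 906, 1089.6 and 1291 CPM in WT CP2 F and 1430.3, 1174, 1328, 1664 and 1102 CPM in KO CP2 F, with overlap. In M it had 823, 873, 845, 771 and 993 CPM in WT and 1385, 1571, 1181, 1278 and 1201 CPM in KO, without overlap. Its log2 fold change was 0.62 (SE 0.10, adjusted p = 0.000133) in M and 0.48 (SE 0.074, adjusted p = 2.96e-05) averaged. mt-Nd2 under CP2 had 3078, 4199.6, 3470.5, 3929.6 and 4098 CPM in WT and 3157, 2787, 2915, 3955 and 2577 CPM in KO in F, and 2937, 3272, 3162, 2814 and 3432 against 3586, 3593, 2856, 2913 and 2853 CPM in M. These ranges overlapped in both letters, and its change was -0.29 (SE 0.10, adjusted p = 0.118) in F and 0.017 (SE 0.10, adjusted p = 0.945) in M.

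Ndufb9 had 99.3, 88.98, 94.6, 104 and 85.1 CPM in WT CP2 M and 141, 124, 136, 106 and 142 CPM in KO CP2 M, without overlap, and 139, 116, 118, 128 and 114 against 142, 146, 138, 137 and 126 CPM in F, with overlap. Its change was 0.46 (SE 0.086, adjusted p = 0.000409) in M and 0.31 (SE 0.061, adjusted p = 0.000553) averaged. Ndufb4 had 28.1, 24.8, 28.02, 31.99 and 20.3 CPM in WT CP2 M and 37.4, 35.6, 39.6, 29.7 and 42.3 CPM in KO CP2 M, with 1 KO sample inside the WT range (log2 fold change of 0.47 with SE 0.12 and adjusted p = 0.0108). In F it had 44.8, 32.5, 35.8, 37.7 and 34.3 CPM in WT and 39.1, 47.2, 38.5, 38.3 and 40.03 CPM in KO, and the ranges overlapped (log2 fold change of 0.13 with SE 0.12 and adjusted p = 0.66). Ndufa6 had 55.9, 54.9, 50.9, 58.97 and 54.4 CPM in WT CP2 M and 62.6, 63.4, 66.5, 56.6 and 76.6 CPM in KO CP2 M, where the groups overlapped through the lowest KO sample (log2 fold change of 0.24 with SE 0.08 and adjusted p = 0.0452). Ndufb8, an accessory subunit of the ND5 part, had 90.3, 77.00, 80.8, 103 and 73.99 CPM in WT CP2 M and 112, 98.4, 111, 89.8 and 124 CPM in KO CP2 M, with overlap (log2 fold change of 0.33 with SE 0.10 and adjusted p = 0.0335).

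The mt-Nd5, mt-Nd6 and Ndufb9 calls, in M and averaged, were made under all 8 alternative settings and without any single library. In M the count of 6 became 15 without L298 and 11 without L267. In these groups the off-gene share was 9.05% to 13.2% in WT CP2 M and 5.18% to 9.06% in KO CP2 M, and 75 of 79 cytosolic ribosomal protein genes were called higher in KO. In M, 4 of 5 microglia, 2 of 5 astrocyte and 1 of 5 oligodendrocyte markers were called higher, 1 of 6 hippocampus markers higher and 1 lower, and 3 of 4 nuclear RNA markers lower. Averaged, 2 of 5 microglia, 1 of 5 astrocyte, 1 of 5 oligodendrocyte, 1 of 6 hippocampus and 3 of 4 cerebellum markers were higher, and 1 of 4 endothelium and 2 of 4 nuclear RNA markers lower. Summed cerebellum markers were 15.3 to 27.2 CPM in WT CP2 F and 16.4 to 370 CPM (median 31.9 CPM) in KO CP2 F. In M they were 13.0 to 31.5 CPM in WT and 27.0 to 31.7 CPM in KO. Summed microglia markers were 200.5 to 250.3 CPM in WT CP2 M and 251.8 to 322.4 CPM in KO CP2 M, and summed astrocyte markers were 1211 to 1533 CPM and 1761 to 3009 CPM. The part of these markers in the members' results was not tested. With this share as a covariate, 4 members were called in M (1 nuclear and 3 mt-Nd, all higher) and 6 averaged (2 nuclear higher, 1 nuclear lower and 3 mt-Nd higher). Without L266 and L291, 4 members were called in M. The M calls of Ndufa6 and Ndufb8 were kept in 2 and 4 of the 10 fits that each left out 1 library, and the averaged call of Ndufa6 was lost without L240, L311, L216, L263 or L299. In F the count of 0 became 2 without L234 and 1 without L311 or L233.

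Some of the ratios between mt-Nd transcripts within a sample separated the genotypes, and others overlapped. The ratios described here were chosen after their values were seen, out of 18 ratios of mitochondrial genes computed, so they carry no test. The count ratio of mt-Nd5 to mt-Nd2 was 1.07 to 1.31 in the 18 WT samples (mean 1.16 ± 0.066 SD) and 1.45 to 1.94 in the 18 KO samples (mean 1.69 ± 0.114 SD). With vehicle in F it was 1.11, 1.20, 1.19, 1.17 and 1.13 in WT and 1.71, 1.85, 1.94, 1.81 and 1.78 in KO. In M with vehicle it was 1.17, 1.11 and 1.31 in WT and 1.68, 1.62 and 1.71 in KO. With CP2 it was 1.11 to 1.26 in WT F, 1.56 to 1.71 in KO F, 1.07 to 1.20 in WT M and 1.45 to 1.76 in KO M. No KO sample lay within the WT range, whatever the letter or the treatment.

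Both genes were also set against mitochondrial transcripts outside complex I. The ratio of mt-Nd2 to mt-Co1, a core subunit of complex IV, was 0.197 to 0.232 in WT and 0.132 to 0.174 in KO, again without overlap. The ratio of mt-Nd2 to mt-Cytb, the mitochondrial subunit of complex III, was 0.461 to 0.542 in WT and 0.344 to 0.428 in KO, and that of mt-Nd2 to mt-Nd1 was 0.578 to 0.689 in WT and 0.410 to 0.574 in KO. By contrast mt-Nd5 to mt-Co1 was 0.235 to 0.272 in WT and 0.247 to 0.297 in KO, and these ranges overlapped. The ratio of mt-Nd5 to mt-Nd4 was 0.910 to 1.11 in WT and 1.19 to 1.42 in KO, without overlap. The ratio of mt-Nd2 to mt-Nd4 was 0.817 to 0.957 in WT and 0.694 to 0.823 in KO, with overlap at the edge. That of mt-Nd4 to mt-Nd1 was 0.674 to 0.764 in WT and 0.590 to 0.739 in KO, with overlap. The ratio of mt-Nd5 to mt-Cytb was 0.536 to 0.635 in WT (mean 0.585 ± 0.031 SD) and 0.616 to 0.725 in KO (mean 0.662 ± 0.033 SD), and that of mt-Nd5 to mt-Nd1 was 0.676 to 0.828 in WT (mean 0.740 ± 0.041 SD) and 0.775 to 1.01 in KO (mean 0.858 ± 0.066 SD). Both overlapped, with the higher mean in KO. mt-Nd6 to mt-Nd5 was between 0.220 and 0.283 in all 36 samples. mt-Nd2 was thus lower in KO relative to mt-Nd1, mt-Co1 and mt-Cytb without overlap. mt-Nd5 relative to the same 3 genes overlapped between the genotypes. Relative to mt-Co2 and mt-Atp6, which had low counts, mt-Nd2 had the lower mean in KO but the genotypes overlapped. Relative to mt-Co3, also low in counts, mt-Nd2 was lower in KO without overlap. Such ratios show unequal change and not which gene changed. They do not depend on the scaling of the libraries.

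**Figure D3:**
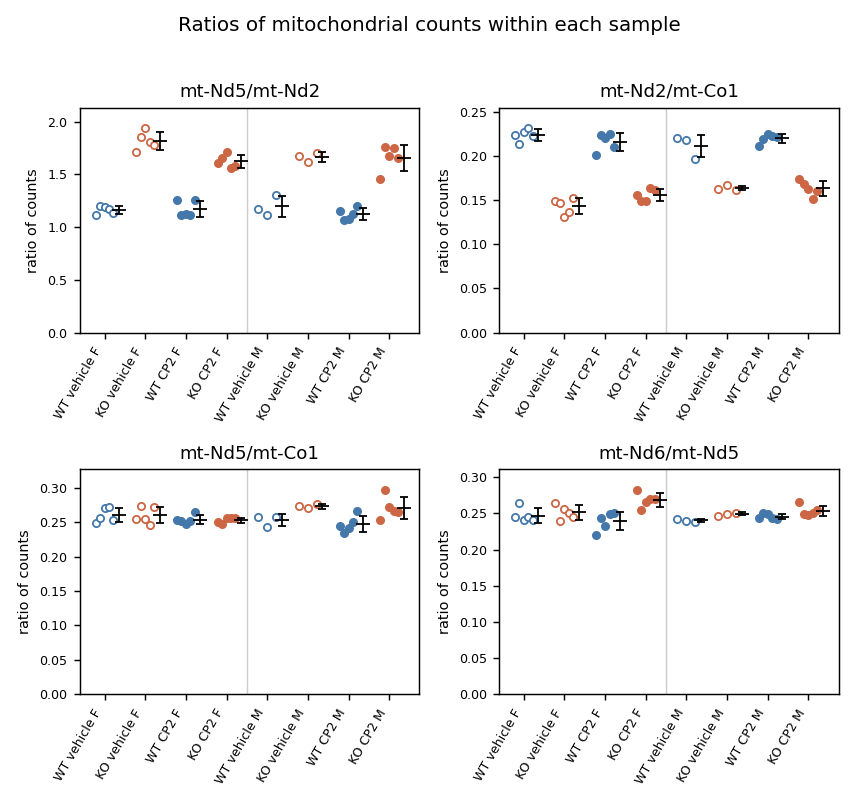
Each point is the ratio of 2 mitochondrial counts within a sample (no unit), in the 8 groups coloured as before, with mean ± SD in black. mt-Nd5/mt-Nd2 and mt-Nd2/mt-Co1 separate all 18 KO from all 18 WT samples, while mt-Nd5/mt-Co1 and mt-Nd6/mt-Nd5 overlap between the genotypes.

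CP2 against vehicle in KO asks what the inhibitor adds when Ndufs4 is missing. Averaged over the letters, 4 of 28 nuclear members (14.3%) and 2 of 7 mt-Nd members (28.6%) were higher with CP2 and none was lower, where 2.08% of all genes were called higher and 1.84% lower. The nuclear members were Ndufc1 (log2 fold change of 0.29 with SE 0.065 and adjusted p = 0.00913), Ndufb9 (log2 fold change of 0.25 with SE 0.066 and adjusted p = 0.023), Ndufs5 (log2 fold change of 0.24 with SE 0.07 and adjusted p = 0.0366) and Ndufb5 of the ND4 part (log2 fold change of 0.17 with SE 0.051 and adjusted p = 0.0477). The mt-Nd members were mt-Nd2 (log2 fold change of 0.27 with SE 0.075 and adjusted p = 0.03) and mt-Nd4, a proton-pumping core subunit (log2 fold change of 0.24 with SE 0.067 and adjusted p = 0.0293). All 35 estimates were above 0, with medians of 0.19 (nuclear) and 0.25 (mt-Nd), against 9.9e-05 over all genes. Within M, 7 nuclear members (25%) were called and no mt-Nd member, where 2.36% of all genes were called higher. Within F no member was called (0.0859% of all genes in either direction), with 3 nuclear and 3 mt-Nd members at an unadjusted p under 0.05 and 0 called by DESeq2.

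In M the members called belonged to the ND2, ND4 and ND5 parts of the membrane arm. None of the 7 Q-module members passed the test, where 2.36% of all genes were called higher. All 7 nevertheless had a higher mean CPM with CP2 than with vehicle. Whether the parts differed from each other was not tested. Ndufb9 had 102, 91.3 and 102 CPM in KO vehicle M and 141, 124, 136, 106 and 142 CPM in KO CP2 M (log2 fold change of 0.40 with SE 0.10 and adjusted p = 0.0141). Ndufb10 had 72.4, 68.9 and 69.2 CPM in KO vehicle M and 97.99, 90.7, 95.5, 77.00 and 104 CPM in KO CP2 M (log2 fold change of 0.41 with SE 0.11 and adjusted p = 0.0177). Ndufb11, an accessory subunit of the ND4 part encoded on the X chromosome, had 60.8, 60.95 and 59.8 CPM in KO vehicle M and 88.1, 76.3, 76.01, 63.6 and 92.04 CPM in KO CP2 M (log2 fold change of 0.39 with SE 0.10 and adjusted p = 0.0149). In these 3 genes every sample with CP2 was above every sample with vehicle. Ndufs5 had 46.9, 49.02 and 40.8 CPM with vehicle and 62.9, 55.7, 58.2, 51.3 and 61.6 CPM with CP2 (log2 fold change of 0.35 with SE 0.11 and adjusted p = 0.0464). Ndufb8 had 82.8, 82.6 and 78.3 CPM with vehicle and 112, 98.4, 111, 89.8 and 124 CPM with CP2 (log2 fold change of 0.40 with SE 0.12 and adjusted p = 0.0453). Both were likewise separate.

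Ndufc1 had 31.99, 25.7 and 26.7 CPM in KO vehicle M and 38.2, 35.3, 39.04, 30.5 and 38.1 CPM in KO CP2 M, with overlap through 1 sample of each group (log2 fold change of 0.36 with SE 0.10 and adjusted p = 0.0219). Ndufb1-ps, which GENCODE M21 annotates as a bidirectional promoter lncRNA, had 17.99, 18.5 and 11.1 CPM with vehicle and 31.3, 24.5, 22.96, 16.6 and 25.6 CPM with CP2, with overlap (log2 fold change of 0.61 with SE 0.18 and adjusted p = 0.0395). For Ndufb5 the values were 79.95, 76.6 and 79.6 CPM with vehicle and 101, 87.98, 96.6, 79.2 and 99.6 CPM with CP2 in M, and 99.2, 86.9, 88.03, 90.6 and 89.1 against 99.8, 103, 93.2, 95.4 and 96.5 CPM in F. Both pairs of ranges overlapped. mt-Nd4 had 3221, 3351 and 3511 CPM with vehicle and 4355, 4629.9, 3730.4, 4053 and 3735 CPM with CP2 in M, where the groups did not overlap. In F it had 3562, 3457, 3519, 2981 and 3969 CPM with vehicle and 4142, 3626, 3762, 5187 and 3413 CPM with CP2, with overlap. The mt-Nd2 values given above also separated in M (at most 2746 CPM with vehicle and at least 2853 CPM with CP2) and overlapped in F. In M, 8 nuclear and 4 mt-Nd members were higher without overlap, where 6.63% of all genes were.

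**Figure D4:**
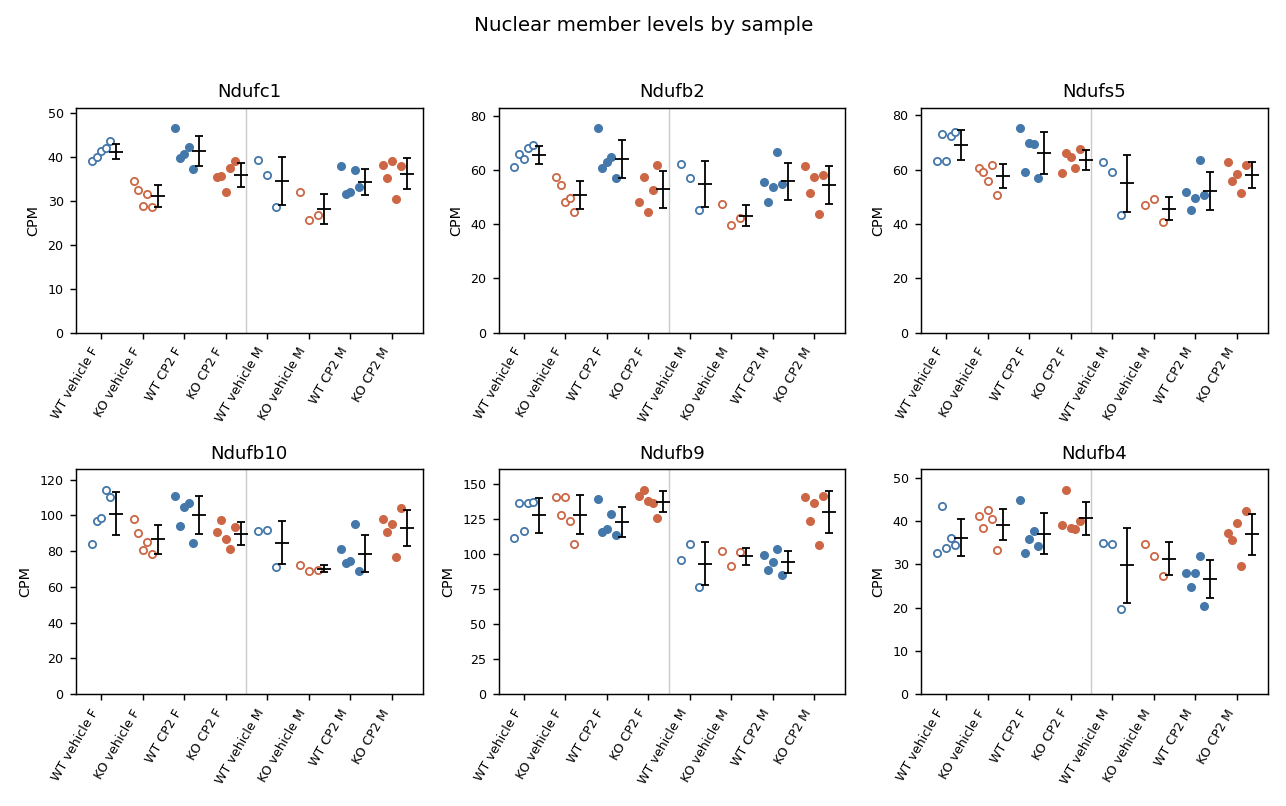
Points are single samples in CPM for 6 nuclear members in the 8 groups (blue WT, orange KO, open vehicle, filled CP2), and the black mark is the mean ± SD. Ndufc1 and Ndufb2 lie lower in KO than in WT with vehicle in F without overlap, and Ndufb9 lies at 106 to 142 CPM in KO CP2 M against 91.3 to 102 CPM in KO vehicle M.

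Other features of the libraries moved with this contrast in M. The off-gene share was 11.3, 12.1 and 13.03% with vehicle and 5.18, 7.41, 7.17, 9.06 and 7.80% with CP2. Summed nuclear RNA markers were 5962 to 6551 CPM with vehicle and 1804 to 3531 CPM with CP2, and 3 of the 4 were called lower. Microglia markers summed to 216.3 to 266.2 CPM with vehicle and 251.8 to 322.4 CPM with CP2 (2 of 5 called higher in M and 3 of 5 averaged), and oligodendrocyte markers to 7418 to 8642 CPM and 7764 to 14152 CPM (1 of 5 higher in M and 3 of 5 averaged). Averaged, 1 of 4 cerebellum markers was also higher and 2 of 4 nuclear RNA markers lower. The part of these markers in the members' results was not tested. Of 79 cytosolic ribosomal protein genes, 71 were called higher and none lower, with a median log2 fold change of 0.43. The summed nuclear members were 1671, 1573 and 1519.7 CPM with vehicle and 2055, 1829, 1978, 1617 and 2114 CPM with CP2. With the off-gene share as a covariate, 0 members and 0 genes of all tested were called, in M and averaged. In that fit the averaged median log2 fold change was 0.086 over the nuclear members (0.19 without the covariate) and 0.33 over the mt-Nd members (0.25 without), and that of mt-Nd2 was 0.30. In M the medians were 0.14 (nuclear, 0.31 without the covariate) and 0.37 (mt-Nd, 0.29 without). Without L266 and L291 the count was 0 in M and 1 averaged, and with library totals alone it was 3 and 1. In M the count of 7 became 0 without L322, 1 without L319 or L299, 2 without L266, 3 without L292, 4 without L291 and 13 without L298. Averaged, the count of 6 became 0 without L322, 1 without L266, 2 without L281, 3 without L282, L310 or L319, 12 without L246 and 13 without L298. In a fit of the 4 KO groups alone it was 0, with nearly the same estimates (medians of 0.19 for nuclear and 0.25 for mt-Nd members, and 0.28 for mt-Nd2).

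**Figure D5:**
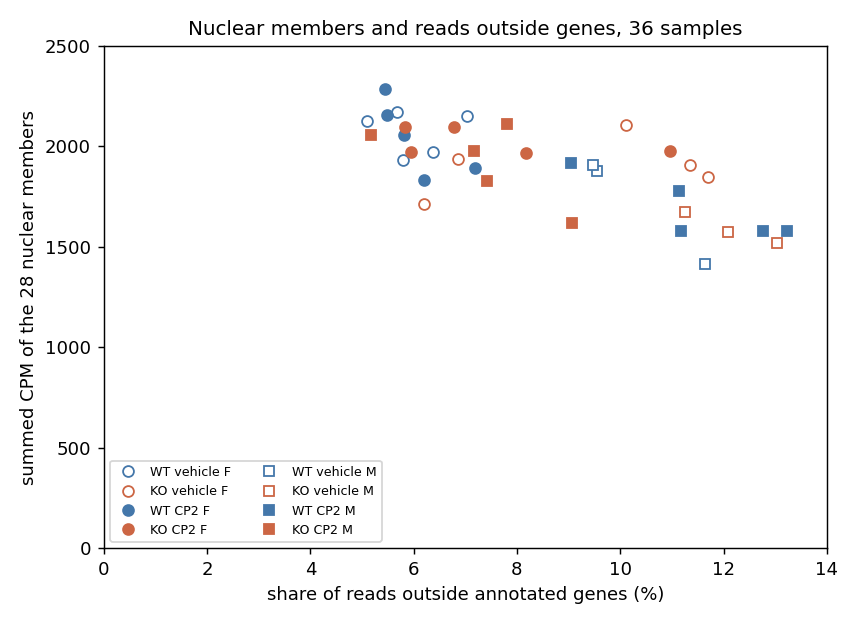
Each point is a sample, with the off-gene share of its reads in percent (x axis) and the summed CPM of the 28 nuclear members (y axis), circles F and squares M. The KO CP2 M samples (filled orange squares) lie at 5.18% to 9.06%, and the other M samples lie at 9.05% to 13.2%.

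CP2 against vehicle in WT gave no call. No member and 0 of 25601 genes passed the edgeR test in the average, in F or in M (0% of all genes), no member had an unadjusted p under 0.05, and DESeq2 called 0 members. Over all genes, 1031, 679 and 777 had an unadjusted p under 0.05 in the average, F and M. Averaged log2 fold changes of the nuclear members ran from -0.095 to 0.094 (median -0.028) and those of the mt-Nd members from -0.00023 to 0.19 (median 0.042), with mt-Nd4l at the top. For mt-Nd2 the 95% interval -0.11 to 0.19 around 0.042 bounds the average change, for Ndufc1 the 95% interval -0.13 to 0.12 around -0.0038, and for mt-Nd5 the 95% interval -0.14 to 0.15 around 0.0051.

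The test of whether the CP2 effect depended on genotype called no member with edgeR in the average, in F or in M, where 0.715%, 0% and 1.98% of all genes were called in either direction. The averaged estimates were above 0 for all 35 members, with medians of 0.21 (nuclear) and 0.19 (mt-Nd) against -0.0048 over all genes. In M the mean off-gene share was 7.33% in KO CP2, 12.1% in KO vehicle, 11.5% in WT CP2 and 10.2% in WT vehicle. Summed nuclear RNA markers had means of 2645, 6324, 5613 and 4878 CPM in the same order. The part of these library features in the estimates was not tested. At an unadjusted p under 0.05 there were 14 nuclear and 3 mt-Nd members in the average, 1 and 0 in F, and 13 and 0 in M. The shares of all genes above are for adjusted calls, and the share at this cutoff is not given. DESeq2 called 0, 0 and 2 members. All 8 alternative settings, among them the fit without L266 and L291, called 0 members in the average. The smallest adjusted p in M belonged to Ndufb10 (log2 fold change of 0.52 with SE 0.15 and adjusted p = 0.0559). In M the count became 10 without L303 and 4 without L267 or L298, and averaged it became 4 without L303 and 1 without L267. The contrasts that give this test share their samples with those above.

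Differences between the letters were tested for each effect, and no member was called by edgeR in any of the 5, where 0.102% (KO against WT with vehicle), 0.82% (KO against WT with CP2), 0.691% (CP2 in KO), 0% (CP2 in WT) and 0.00781% (interaction) of all genes were called in either direction. For KO against WT with vehicle, the F minus M difference of mt-Nd2 was -0.38 (SE 0.16, adjusted p = 0.48). For KO against WT with CP2 it was -0.40 (SE 0.13, adjusted p = 0.141) for mt-Nd5 and -0.30 (SE 0.12, adjusted p = 0.228) for Ndufb9. At an unadjusted p under 0.05 there were 8 nuclear and 2 mt-Nd members in that contrast, 4 and 0 for CP2 in KO, and 0 and 1 for KO against WT with vehicle. The share of all genes at this cutoff is not given. Calls made in 1 letter are thus not shown to differ from the other.

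Side by side, nuclear and mt-Nd members had medians of the same sign in the averaged knockout contrasts and in CP2 against vehicle in KO. The signs differed in KO against WT with vehicle in M (-0.15 nuclear and 0.043 mt-Nd), in KO against WT with CP2 in F (-0.021 and 0.00052) and in CP2 against vehicle in WT, averaged (-0.028 and 0.042) and in M (-0.045 and 0.090). No test of the difference between the 2 kinds of member was made. In the averaged knockout contrasts, with vehicle and with CP2, the mt-Nd estimates covered the wider range. With vehicle their averaged estimates ran from -0.37 (mt-Nd2) to 0.24 (mt-Nd6), and those of nuclear members from -0.36 (Ndufb2) to 0.093 (Ndufb4). Under CP2 the mt-Nd members ran from -0.13 (mt-Nd2) to 0.48 (mt-Nd6) and the nuclear members from -0.16 (Ndufb2) to 0.31 (Ndufb9). The upper mt-Nd end was mt-Nd6 in both contrasts, and its reads cannot be told apart from reads antisense to it. By part, the averaged medians with vehicle were -0.097 for the Q-module, -0.16 for the ND1 part, -0.18 for the ND2 part, -0.13 for the ND4 part and -0.17 for the ND5 part, and 0 of 7, 0 of 4, 3 of 10, 1 of 7 and 1 of 7 members were called lower, where 3.8% of all genes were.

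Other genes of the pathway were counted from fixed lists. With vehicle averaged, 2 of 8 N-module genes were lower, Ndufs4 itself and Ndufa12 (-0.24, adjusted p = 0.0351), as were 4 of 18 assembly factors, including Ndufaf2 (-0.49, adjusted p = 0.00209) and Timmdc1 (-0.39, adjusted p = 0.00322), and 6 of 38 nuclear subunits of complexes II to V, while 0 of 6 other mitochondrial mRNAs were called (3.8% of all genes were lower). With CP2 averaged, mt-Co1 (0.31, adjusted p = 0.000432) and mt-Cytb (0.20, adjusted p = 0.0181) were higher among those 6 (5.54% of all genes). Some of the 6 had low counts beside the others. Counts of mt-Nd2 were 125 to 254 times those of mt-Co2, 119 to 221 times those of mt-Co3 and 41.8 to 326 times those of mt-Atp6. Copies of these genes elsewhere were not searched for. For CP2 in KO averaged, 12 of 38 subunits of complexes II to V and 1 of 6 other mitochondrial mRNAs were higher, together with both mitochondrial rRNAs, and 0 of 8 N-module genes and 0 of 18 assembly factors were called (2.08% of all genes were higher). With the off-gene share as a covariate, none of these genes was called for CP2 in KO.

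Over the 15 contrasts, 11 nuclear and 4 mt-Nd members were called at least once, as were 22.5% of the 25601 genes tested, and 17 nuclear and 3 mt-Nd members were called in none. The latter were Ndufs3, Ndufs7, Ndufs8, Ndufa5, Ndufa7 and Ndufa9 of the Q-module, Ndufa3, Ndufa8 and Ndufa13 of the ND1 part, Ndufa1, Ndufa10, Ndufa11 and Ndufc2 of the ND2 part, Ndufb6 of the ND4 part, Ndufab1, Ndufb3 and Ndufb7 of the ND5 part, and mt-Nd1, mt-Nd3 and mt-Nd4l. Among them Ndufs3, Ndufs7 and Ndufs8 are core subunits of the Q-module that carry or flank its electron path, and Ndufab1 is the mitochondrial acyl carrier protein. Ndufa9 ran from 83.0 to 107 CPM and Ndufa10 from 101 to 146 CPM over the 36 samples, while Ndufa1 ran from 12.8 to 52.9 CPM and Ndufa3 from 26.3 to 74.2 CPM. Ndufa3, an accessory subunit of the ND1 part, had 0.54 (SE 0.20, adjusted p = 0.12) for CP2 in KO M and 0.58 (SE 0.28, adjusted p = 0.298) for the interaction in M. mt-Nd1 was nearest to a call in KO against WT with CP2 in M, at 0.25 (SE 0.085, adjusted p = 0.0517).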

How the data were processed

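PolyA RNA of 36 samples in 8 groups was sequenced. The authors deposited 1 table of raw read counts per gene, made with STAR and HTSeq on GRCm39, per the submitters' processing notes; versions, annotation release and strandedness are not given in the sources used here. Its 5 rows that name no gene stayed out of library sizes and tests. Genes were tested with edgeR 4.0.16 (R 4.3.3): TMM scaling, filterByExpr, a robust quasi-likelihood fit of 8 group means over all 36 samples, and Benjamini-Hochberg adjustment over 25601 genes, with calls at an adjusted p under 0.05. An average weights F and M equally. The prior count for log2 CPM was 2. DESeq2 1.42.0 and the other alternatives are described in the closing section. The 66 pairs of samples within groups differed beyond sampling noise (mean chi-square per gene 11.5 to 117). By rule, values by sample are given for members called in a contrast, those called in most contrasts first, and for mt-Nd members; other members are given by range and count. Members, lists and tests were chosen with earlier results of these data known.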

Additional observations from a re-analysis of the deposited data

Results flagged for a closer look

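In 240 combinations of a member or a mitochondrial ratio with a group of 5 samples, 8 had a sample far from the others by Dixon's criterion at the 95% level. Chance marks about 1 in 20 such groups. Among nuclear members, Ndufa5 was lowest in L298 of KO CP2 M (47.21 CPM, the next sample at 60.87 CPM), Ndufa6 was lowest in L283 of KO vehicle F (58.94 CPM, next 72.36 CPM), and Ndufb4 was highest in L216 of KO CP2 F (47.24 CPM, next 40.03 CPM). Ndufb1-ps was highest in L296 of WT vehicle F (35.43 CPM, next 29.88 CPM) and lowest in L311 of WT CP2 F (20.44 CPM, next 31.36 CPM). Among mt-Nd members, mt-Nd3 was highest in L246 of KO vehicle F (17.63 CPM, next 14.38 CPM) and mt-Nd4l in L295 of WT vehicle F (4.834 CPM, next 4.062 CPM). The ratio of mt-Nd6 to mt-Nd5 was highest in L277 of WT vehicle F (0.2642, next 0.245).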

How the results depend on the processing

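In most contrasts, some of them with a count of 0, the counts of members called kept within 1.5 times of the reported value in most settings. CP2 against vehicle in KO was less stable. Its count kept within that bound in 10 of 18 fits without 1 library averaged, and in 1 of 8 in M. Of the 8 other settings, 4 kept it averaged and 5 in M. No estimate of a called member changed sign in any setting. The settings were RLE size factors, library totals alone, scaling from nuclear genes only, no filter on low counts, the off-gene share as a covariate, only the groups of the contrast, L266 and L291 left out together, DESeq2, and each library left out in turn. With the covariate, KO against WT with vehicle gave 1 member averaged and 1 in F, and CP2 in KO gave 0 averaged and 0 in M. With library totals alone CP2 in KO gave 1 averaged and 3 in M. With L266 and L291 left out it gave 1 and 0. With only the groups of the contrast it gave 0 averaged, and the interaction in M gave 1. DESeq2 gave 1 for KO against WT with CP2 in F and 2 for the interaction in M, where no filter gave 1. Leaving out 1 library gave 3 to 11 members for KO against WT with vehicle averaged, 2 to 4 in F, 4 to 6 with CP2 averaged, 0 to 2 with CP2 in F, 4 to 15 with CP2 in M, 0 to 13 for CP2 in KO averaged and 0 to 13 in M, and 0 to 4 and 0 to 10 for the interaction averaged and in M. The cause was not tested.

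With library totals alone, the share of called genes that were higher went from 40.8% to 64.4% for KO against WT with vehicle in F, from 43.9% to 31.5% in M, from 35.8% to 55% with CP2 in F, from 47.6% to 32.2% with CP2 in M, from 53.1% to 24.8% for CP2 in KO averaged, from 46.2% to 24.6% in M, and from 44.3% to 30% for the interaction averaged. With DESeq2 it was 54.8% for vehicle F and 49.1% for CP2 F. No paired analysis was possible because the groups share no replicate numbers in the titles.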
